A study of Mus musculus with 2 samples.

Results

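Protein tyrosine phosphatases remove phosphate from tyrosine residues, and dual-specificity phosphatases also remove it from serine and threonine residues. The genes encoding them were compared on arrays of TCRαβ+CD8αα+ intraepithelial lymphocytes (IELs), T cells that reside between the epithelial cells of the small intestine, from control mice and from mice labelled as carrying floxed Rbpj, a Notch effector gene, with CD4-Cre. Members were the gene probes on both arrays whose accession resolved to a symbol of the Ptpn, Ptpr or Dusp series, leaving out Ptprcap, which encodes a protein bound to a receptor phosphatase and is no phosphatase itself. This gave 61 of 20887 named genes and 87 of 55679 gene probes. They fell into 3 classes, with 20 receptor genes (Ptpr, 33 probes), 17 non-receptor genes (Ptpn, 22 probes) and 24 dual-specificity genes (Dusp, 32 probes). The rule uses symbols and no measured value, although earlier results of these data were known when it was written. The Ptprtos RNA and the Ptprv pseudogene, which bear receptor names, had no probe.

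Each genotype was measured on 1 Agilent array of 1 color, so 2 arrays were compared and no test across samples, standard error between animals or p-value can be given. The RNA came from C57BL/6 mice of 8 to 12 weeks, males and females pooled, and from several isolations per genotype. The control array is labelled as floxed Rbpj without a named Cre, where the paper gives the controls as Rbpj+/+ mice with CD4-Cre. The other array is labelled RFF4, from floxed Rbpj mice with CD4-Cre, a transgene that is first active in developing thymocytes and so deletes in αβ T cells in general, not in IELs alone. IELs had been sorted for TCRβ and CD8α after removal of CD4, TCRγδ and CD8β cells. Differences below are log2 signals of the array labelled RFF4 minus the control array, each relative to that array's 75th percentile.

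On the control array 57.2% of gene spots were well above background and on the array labelled RFF4 49.7% were, with median signals of 9.47 and 5.78 times background over those spots. Probes spotted repeatedly gave a technical SD of 0.16 for a log2 difference. It covers the scatter of spots within each array, and not differences between labellings, hybridizations or animals. The Notch target genes Heyl (-3.80) and Dtx1 (-3.63) were lower on the array labelled RFF4, but the Rbpj signal was not, with differences of 0.32 and 0.82 for its probes. Where these probes lie relative to the deleted exons is not given in the sources used here, so the arrays are named by their labels. The T cell genes Cd3d, Cd3e, Cd3g, Lck, Zap70 and Cd8a had bright signals on both arrays. Of the genes that the sort should exclude, Cd8b1 was at -3.52 on the control array and not well above background on the other, while Cd4 was above background on both, at 1.67 and 1.80. Setting the spike-in controls equal in place of the 75th percentile lowers every difference by 1.12 and scaling to the median lowers it by 0.17, and the directions below are relative to the 75th percentile.

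In T cells these enzymes set the threshold of antigen receptor signaling. The receptor class spans the membrane, and its member CD45, encoded by Ptprc, activates the Src family kinase Lck. Non-receptor enzymes such as SHP and the PEST family counter kinases of the receptor complex from the cytoplasm, and MAP kinase phosphatases of the dual-specificity class switch off ERK, JNK and p38.

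The non-receptor class had the lowest median of the 3 classes. The non-receptor genes had a median of -0.50 over 15 genes, 11 of them lower and 4 higher on the array labelled RFF4. The receptor genes had a median of 0.19 over 11 genes, 4 lower and 7 higher, a direction that turned with the spike-in controls set equal (-0.73). The filter bears on that median, since Ptprr, Ptprg and Ptprk lay on the control array below the lowest signal well above background on the array labelled RFF4 (-4.29) and could have a difference only by being higher there. Without these 3 genes, over the 8 receptor genes that could differ either way, the median was 0.021, with 4 higher. The dual-specificity genes had a median of 0.12 over 19 genes, 8 lower and 11 higher, and this direction turned with median scaling (-0.055) as well as with the spike-in controls set equal (-1.005). All 45 members with a difference had a median of -0.0069 and all 13513 named genes one of -0.015. The receptor median exceeded the non-receptor median by 0.69, by 0.52 when genes under that floor were left out, and by between 0.56 and 1.15 over the other processing settings tried. Since the members are different genes on the same 2 arrays, this gap was given no test.

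**Figure D1:**
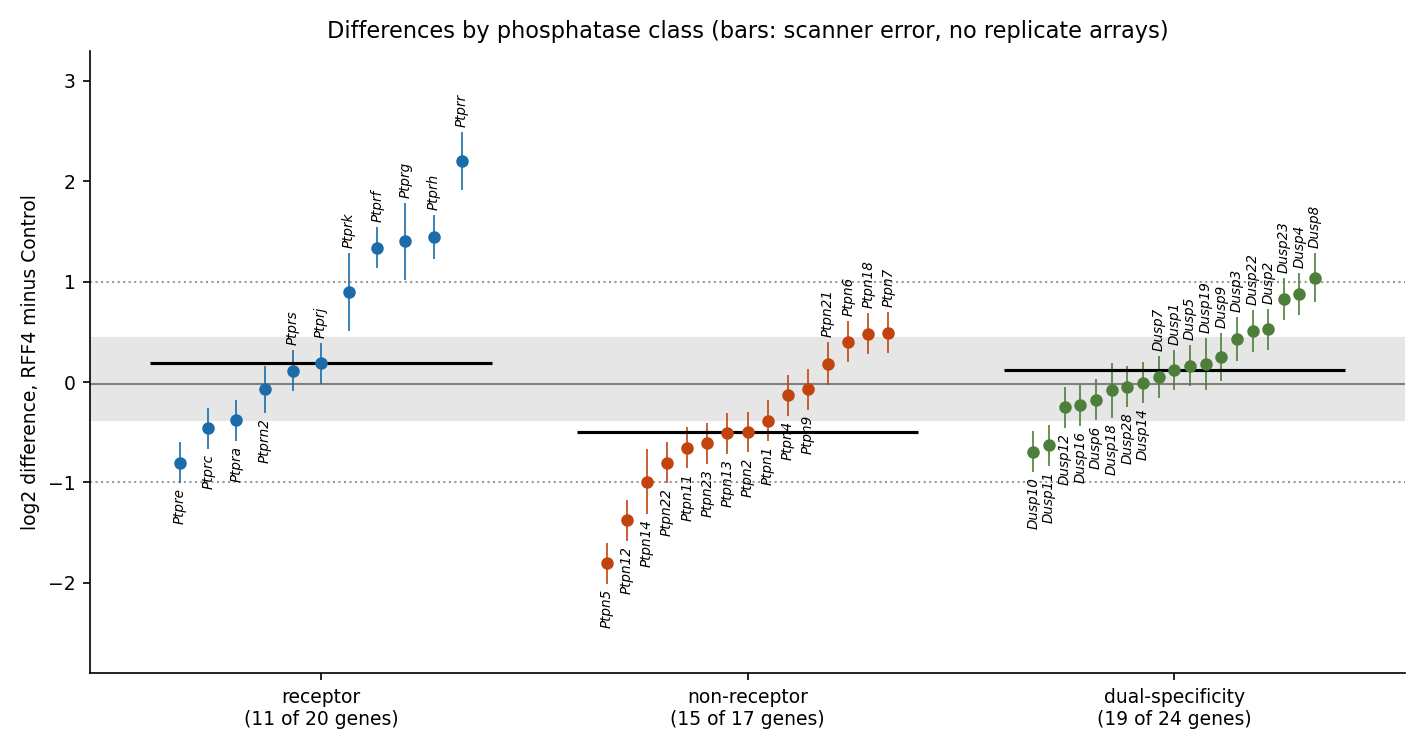
Log2 difference (array labelled RFF4 minus control array) of each phosphatase gene with a difference, by class. Points are genes, bars are the scanner's error of the difference, black lines are class medians, dotted lines mark 2-fold, and the gray band and line are the quartiles and median of all 13513 named genes. The non-receptor median lies at -0.50 and the receptor and dual-specificity medians at 0.19 and 0.12, but with spike-in scaling all 3 medians are below 0, and with median scaling the dual-specificity median is as well.

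More than 2-fold lower were 2 members (4.44%), Ptpn5 and Ptpn12, both of the non-receptor class, against 5.05% of all named genes. More than 2-fold higher were 5 members (11.1%), against 12.3% of all named genes. These were the receptor genes Ptprr, Ptprh, Ptprg and Ptprf, 4 of 11 (36.4%, Ptprr and Ptprg among the genes that could only be higher), and the dual-specificity gene Dusp8, 1 of 19 (5.26%). With genes under the floor left out, 3 members were more than 2-fold higher, against 9.82% of all named genes. Past 4-fold there were 0 members lower and 1 higher, Ptprr, against 0.585% and 1.85% of all named genes. The shares over all members were thus close to those of all genes. The split between lower and higher members depended on the scaling, with 3 and 4 under median scaling (7.98% and 9.68% of all named genes), 4 and 4 under quantile normalization (5.49% and 11.2%) or cyclic loess (6.41% and 10.3%), and 26 and 1 under spike-in scaling (56.9% and 1.39%). Of the 45 members, 24 differed by more than 2 times the scanner's error of their difference, 12 lower and 12 higher, and 21 did not. Among the 12955 named genes above background on both arrays, 21.6% were lower and 24.9% higher beyond that error, 46.5% in all, against 53.3% of the members. Among the non-receptor genes 8 were lower beyond that error and 2 higher, among the receptor genes 2 and 5 (Ptprr, Ptprg and Ptprk, which could only be higher, included), and among the dual-specificity genes 2 and 5.

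How many genes of a class could be measured differed. Well above background on both arrays were 15 of 17 non-receptor genes (88.2%), 19 of 24 dual-specificity genes (79.2%) and 11 of 20 receptor genes (55%), against 62.0% of all named genes. On neither array were the receptor genes Ptprb, Ptprm, Ptprn, Ptpro, Ptprq, Ptprt, Ptpru and Ptprz1, the non-receptor gene Ptpn20, and Dusp13, Dusp15, Dusp21, Dusp26 and Dusp27. Ptprd and Ptpn3 were well above background on the control array alone. Their signals there, -4.77 and -5.40, lay below the lowest signal that counted as well above background on the array labelled RFF4 (-4.29), so no difference is given for them. That leaves 45 members, each measured above background on both arrays and none as a bound.

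**Figure D2:**
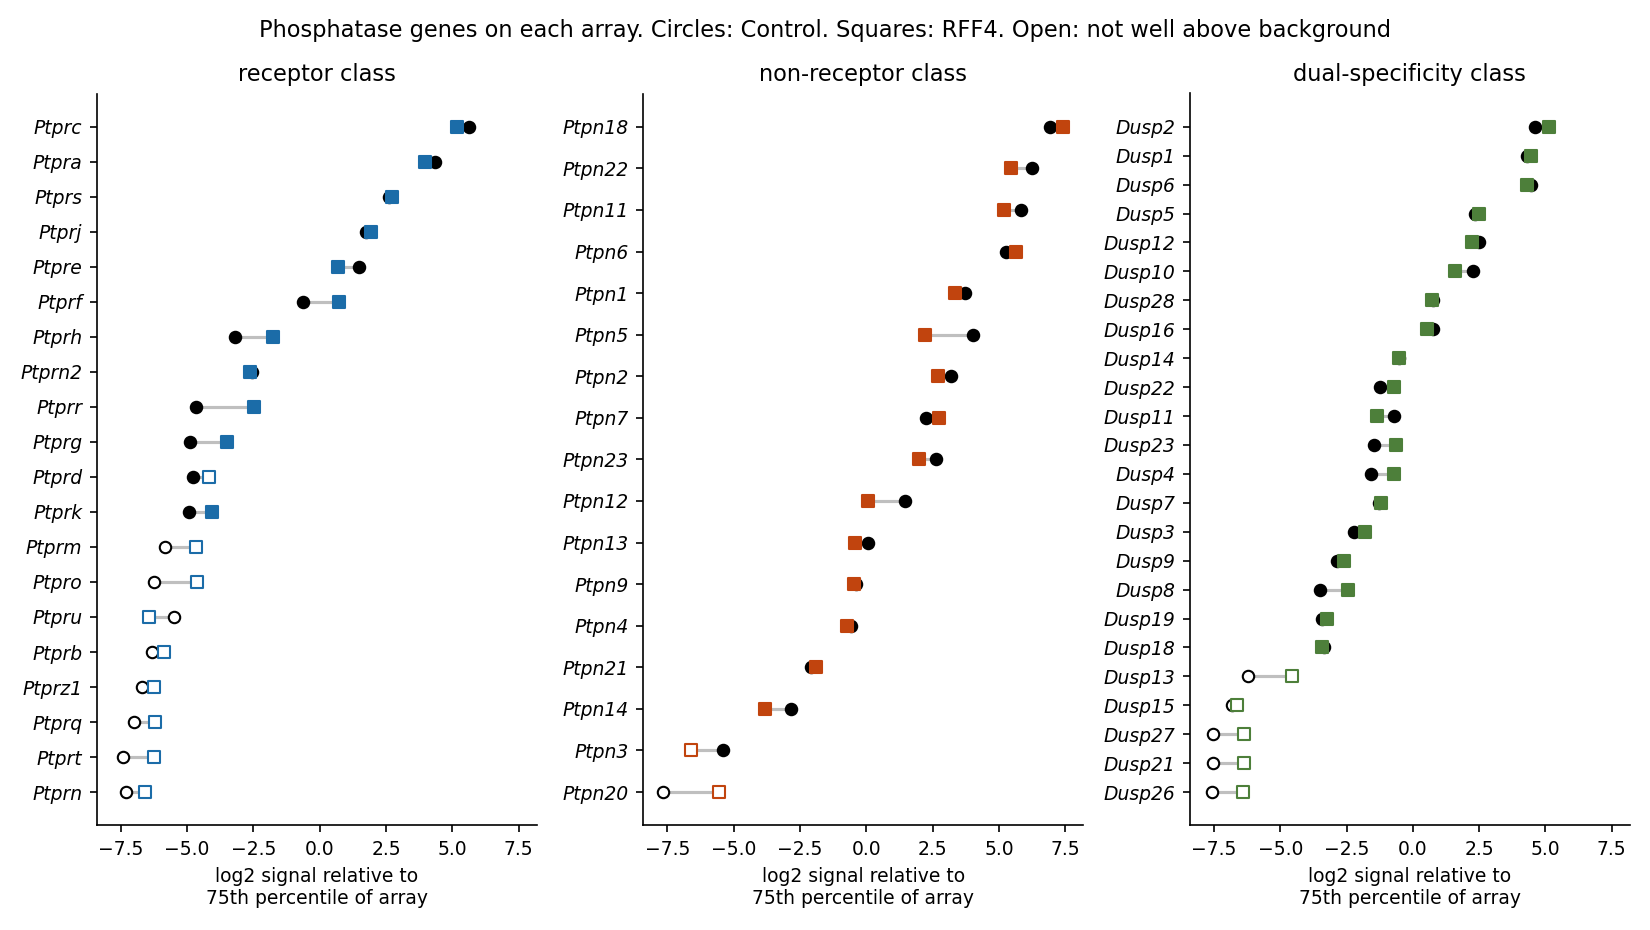
Log2 signal of all 61 phosphatase genes relative to the 75th percentile of each array, with circles for the control array, squares for the array labelled RFF4 and open symbols where the probe was not well above background. Genes are ordered by mean signal, which depends on the probe and does not rank RNA amounts between genes. The widest gaps are those of Ptpn5 and Ptpn12 on the lower side and Ptprr, Ptprh, Ptprg and Ptprf on the higher side, among genes above background on both arrays.

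Ptpn5, Ptpn7 and Ptprr encode the phosphatases with a kinase interaction motif, through which they bind ERK and p38 MAP kinases. This small group held both the lowest and the highest difference among the members. Ptpn5, also called STEP and best known from neurons, had a signal of 4.02 on the control array and 2.22 on the array labelled RFF4. The difference of -1.81 (3.50-fold lower, scanner error 0.20) ranked 124 from the lowest of 13513 genes. Ptpn5 was singled out by name with this value known, so the value is a description. Under the settings other than spike-in scaling it lay between -1.98 and -1.80, and with that scaling it was -2.93. Ptprr, the receptor of the group, stood at -4.67 on the control array and -2.46 on the other, a difference of 2.20 (4.60-fold higher, scanner error 0.29) that ranked 167 from the highest. It was dim, with background-subtracted signals before scaling of 20.1 and 41.0 where Ptpn5 gave 8295 and 1053, and with normexp background correction its difference was 1.37, no longer past 4-fold. Ptpn7, the hematopoietic member, was at 2.25 and 2.74, a difference of 0.49, and its other probe gave 0.44. Ptpn5 and Ptprr were represented by 1 probe each.

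The promoters of Ptpn5 and Ptpn7 are shown because both genes bind the same kinases and differed in opposite directions here, and because RBPJ, encoded by the gene that is floxed in RFF4 mice, binds DNA at a known core motif. That motif, TGGGAA, was searched on both strands (TTCCCA on the other) in RefSeq promoters of GRCm38.p6, from 250 bases before to 50 bases after the start site, with capitals marking a match. The sequences run 5′ to 3′ on the gene's strand.
Ptpn5, chr7:47133635-47133934, minus strand: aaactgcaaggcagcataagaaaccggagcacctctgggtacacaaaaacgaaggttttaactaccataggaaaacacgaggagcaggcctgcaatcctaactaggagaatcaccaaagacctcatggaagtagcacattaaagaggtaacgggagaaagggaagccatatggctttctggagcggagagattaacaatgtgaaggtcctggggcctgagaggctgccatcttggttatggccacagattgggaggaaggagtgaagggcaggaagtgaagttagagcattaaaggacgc
Ptpn5, chr7:47132549-47132848, minus strand: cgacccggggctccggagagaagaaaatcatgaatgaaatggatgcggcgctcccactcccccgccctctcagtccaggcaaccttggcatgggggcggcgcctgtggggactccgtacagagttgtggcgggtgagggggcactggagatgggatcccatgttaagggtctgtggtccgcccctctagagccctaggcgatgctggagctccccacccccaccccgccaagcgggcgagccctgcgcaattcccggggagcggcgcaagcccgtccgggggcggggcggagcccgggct
Ptpn7, chr1:135132450-135132749, plus strand: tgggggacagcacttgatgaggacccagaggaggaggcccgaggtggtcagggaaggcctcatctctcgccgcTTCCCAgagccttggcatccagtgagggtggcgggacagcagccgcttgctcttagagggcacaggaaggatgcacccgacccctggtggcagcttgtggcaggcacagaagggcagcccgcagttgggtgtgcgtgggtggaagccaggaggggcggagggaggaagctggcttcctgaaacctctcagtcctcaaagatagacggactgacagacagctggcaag
Ptpn7, chr1:135133059-135133358, plus strand: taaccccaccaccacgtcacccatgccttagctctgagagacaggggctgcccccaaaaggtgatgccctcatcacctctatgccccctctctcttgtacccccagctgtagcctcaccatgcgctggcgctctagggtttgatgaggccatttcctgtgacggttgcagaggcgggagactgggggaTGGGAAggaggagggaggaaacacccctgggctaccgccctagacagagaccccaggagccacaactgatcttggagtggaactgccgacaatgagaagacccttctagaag
Both Ptpn7 promoters hold a match, 177 and 62 bases before the start site, and neither Ptpn5 promoter nor any of the 4 Ptprr promoters does. Of all 32851 promoters 25.6% hold the motif. The members have 67 promoters in the table, of 50 of the 61 genes, and 16 of the 67 do (23.9%), in 7 of 19 of the non-receptor class (36.8%), 5 of 27 of the receptor class (18.5%) and 4 of 21 of the dual-specificity class (19.0%). A match describes these letters in this window and is no evidence of binding.

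The PEST phosphatases did not move together. Ptpn22, whose product, PEP, restrains Lck and ZAP-70, had signals of 6.24 and 5.44, a difference of -0.80. Under quantile normalization (-1.04) and cyclic loess (-1.10) it was past 2-fold. Ptpn12, encoding PTP-PEST, which acts on adhesion and cytoskeletal proteins, went from 1.46 on the control array to 0.08 on the other, a difference of -1.38 (2.60-fold lower). It was past 2-fold under every setting tried, between -1.55 and -1.26 without spike-in scaling. Ptpn18 had signals of 6.94 and 7.42, a difference of 0.48 that turned slightly below 0 in 1 of the settings other than spike-in scaling (-0.0079).

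Both SHP phosphatases carry SH2 domains and were brightly measured, with opposite differences. Ptpn11, encoding SHP2, which mostly promotes growth factor and ERK signaling, was at 5.83 on the control array and 5.18 on the other (-0.65). Ptpn6, encoding SHP1, an inhibitor of antigen receptor signaling in lymphocytes, was at 5.26 and 5.66 (0.40). Under normexp correction these were -0.87 and 0.20, and with spike-in scaling Ptpn6 was lower as well (-0.72). Ptpn1 and Ptpn2, which dephosphorylate JAK and STAT proteins of cytokine signaling, were both lower. Ptpn1 was at 3.74 and 3.35 (-0.39), with its other probe at -0.38. Ptpn2 was at 3.21 and 2.71 (-0.50), and its 3 probes lay between -0.56 and -0.16. Ptpn2 was therefore lower on each of its probes but by unequal amounts.

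The remaining non-receptor genes were lower or close to 0. Ptpn23, an endosomal sorting factor, was at 2.61 and 2.001 (-0.61). Among the phosphatases with a FERM domain, which tethers proteins to the membrane, Ptpn13 was -0.51, Ptpn4 -0.13 and Ptpn21 0.18. Ptpn14, another of these, was at -2.83 and -3.82 (-0.99, 1.99-fold lower), just short of 2-fold. It was past 2-fold with median scaling (-1.17) but 0.26 with normexp correction, so that its direction depends on the background correction and its offset. Ptpn9 was -0.07.

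In the receptor class, the genes best known from T cells and other leukocytes lay between -0.80 and 0.19. Ptprc, encoding CD45, was at 5.64 on the control array and 5.18 on the other (-0.46). Ptpra, which activates Src family kinases, was at 4.34 and 3.96 (-0.38), and its close relative Ptpre was at 1.48 and 0.68 (-0.80). Ptprj, encoding CD148, was at 1.75 and 1.94 (0.19), with its 4 probes between -0.07 and 0.33. These genes thus lay on both sides of 0, and 0 of the 4 were past 2-fold.

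The receptor genes past 2-fold besides Ptprr were Ptprf, Ptprh and Ptprg. Ptprf, encoding LAR, an adhesion receptor of epithelia and neurons, was at -0.62 on the control array and 0.72 on the other, a difference of 1.34 (2.53-fold higher). Ptprh, encoding SAP-1, a receptor with fibronectin repeats found on the microvilli of gut epithelial cells, was at -3.19 and -1.74 (1.44, 2.72-fold). Ptprg, which has a carbonic anhydrase-like domain, was at -4.90 and -3.50 (1.40, 2.64-fold, scanner error 0.38). Its other 2 probes were not above background on either array. Ptprk, a homophilic adhesion receptor with a MAM domain, was at -4.94 and -4.05 (0.89, scanner error 0.39). Ptprs, the other LAR family member measured, was at 2.62 and 2.74 (0.11), and Ptprn2, a protein of secretory granules, was -0.07. Ptprf, Ptprh, Ptprg and Ptprr were past 2-fold under each setting that kept them other than spike-in scaling (the filter on the control signal removes Ptprg and Ptprr), and with it they were 0.21, 0.32, 0.28 and 1.08.

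Most markers of other cells were also higher on the array labelled RFF4. All 15 epithelial markers were, with a median of 1.55 and 13 past 2-fold, and their summed scaled level was 245 on the control array and 743 on the other. Of the macrophage and dendritic cell markers, 12 of 13 gave a difference, all of them higher, with a median of 2.33 and summed levels of 76.3 and 169.9. The control signals of 4 of these 12, C1qa, C1qc, Cx3cr1 and Adgre1, lay under the floor of the other array, so that they could only be higher, and the 8 others had a median of 1.94. Of the B and plasma cell markers, 4 of 7 did, 3 higher and Cd79b at -0.26, with a median of 1.73 and summed levels of 26.0 and 58.2. Ms4a1 could likewise only be higher, and of the 3 genes left without it 2 were higher, with a median of 1.68. Cd79a and Pax5 were among those not above background on either array. Of the endothelial and stromal markers, 6 of 7 did, 4 higher, Pecam1 at -1.03 and Col1a1 at -0.16, with a median of 1.11 and sums of 5.99 and 14.0, and the endothelial cadherin Cdh5 was not above background. Of the neural markers, 3 of 5 did, 2 higher and Elavl4 at -0.45, with a median of 0.89 and sums of 19.1 and 35.2. The T cell and IEL markers had a median of 0.35 over 12 of 13 genes and sums of 2866 and 4341, but their median was below 0 under quantile normalization (-0.12) and cyclic loess (-0.0088). The sums follow the brightest probes and do not measure amounts of a cell type. Brightest on the control array were Itgax (0.20) and Itgam (0.92) in the macrophage list. In the T cell list they were Ccl5 (0.997) and Gzma (1.02). The epithelial, macrophage and B cell medians stayed above 0 in all the scalings, with 0.43, 1.20 and 0.61 under spike-in scaling, and the endothelial and neural medians did not (-0.015 and -0.36). The part of these cells in the values of Ptprf, Ptprh, Ptprg, Ptprk and Ptprr was not tested. In sorted cells measured in bulk, more cells of another type and more RNA per cell cannot be told apart.

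**Figure D3:**
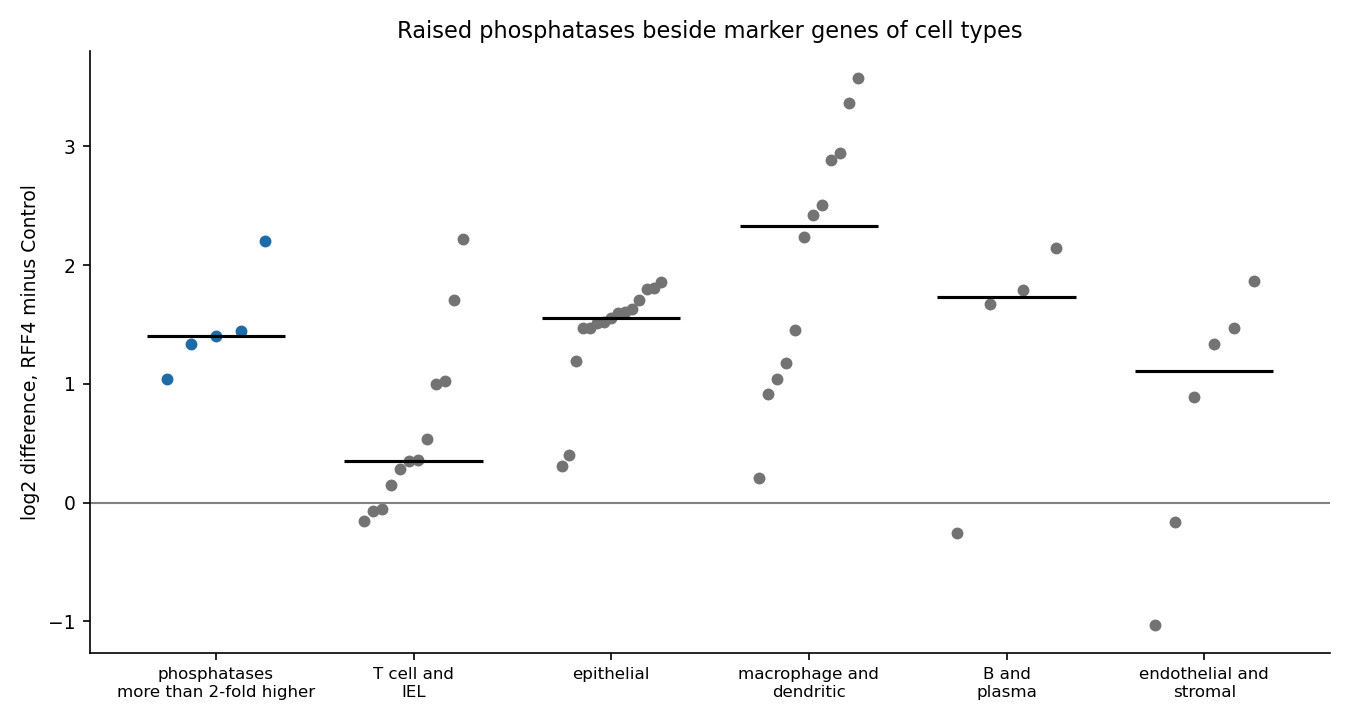
Log2 difference (array labelled RFF4 minus control array) of the 5 phosphatase genes more than 2-fold higher and of the markers of 5 groups of cells, with black lines for the medians. The epithelial median is 1.55, the macrophage and dendritic median 2.33 (1.94 over the 8 genes that could also have been lower) and the T cell median 0.35, which falls below 0 with quantile, cyclic loess or spike-in scaling, as the endothelial and stromal median does with spike-in scaling.

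Several of the higher receptor genes were dim. Ordering the genes above background on both arrays by mean signal and cutting them into 4 bins of equal size, all genes had a median of 0.31 in the dimmest bin, where 23.3% were more than 2-fold higher and 4.88% lower, and medians of -0.10, -0.12 and 0.037 in the others. Of the 11 receptor genes 5 lay in the dimmest bin, Ptprr, Ptprg, Ptprh and Ptprk among them, with a median of 1.40, while Ptprf lay in the next bin, and the 2 in the brightest had one of -0.42. The bin median of 1.40 is partly fixed by the filter, as Ptprr, Ptprg and Ptprk entered the bin only by being higher, like 11.9% of all genes in it. Without such genes the bin's median over all genes was 0.17, with 18.2% more than 2-fold higher. The non-receptor genes were distributed the other way, with 2 in the dimmest bin (median -0.40) and 6 in the brightest (-0.52), and their medians in the middle bins were -0.32 and -0.50. The dimmest bin holds only Ptpn14 and Ptpn21 of this class, which were 0.26 and 0.43 with normexp correction, so its median rests on the background correction and its offset. The dual-specificity medians ran from 0.22 over 6 genes in the dimmest bin through -0.0069 and -0.25 to 0.12 over 3 genes in the brightest. The part of brightness in the difference between the classes was not tested.

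**Figure D4:**
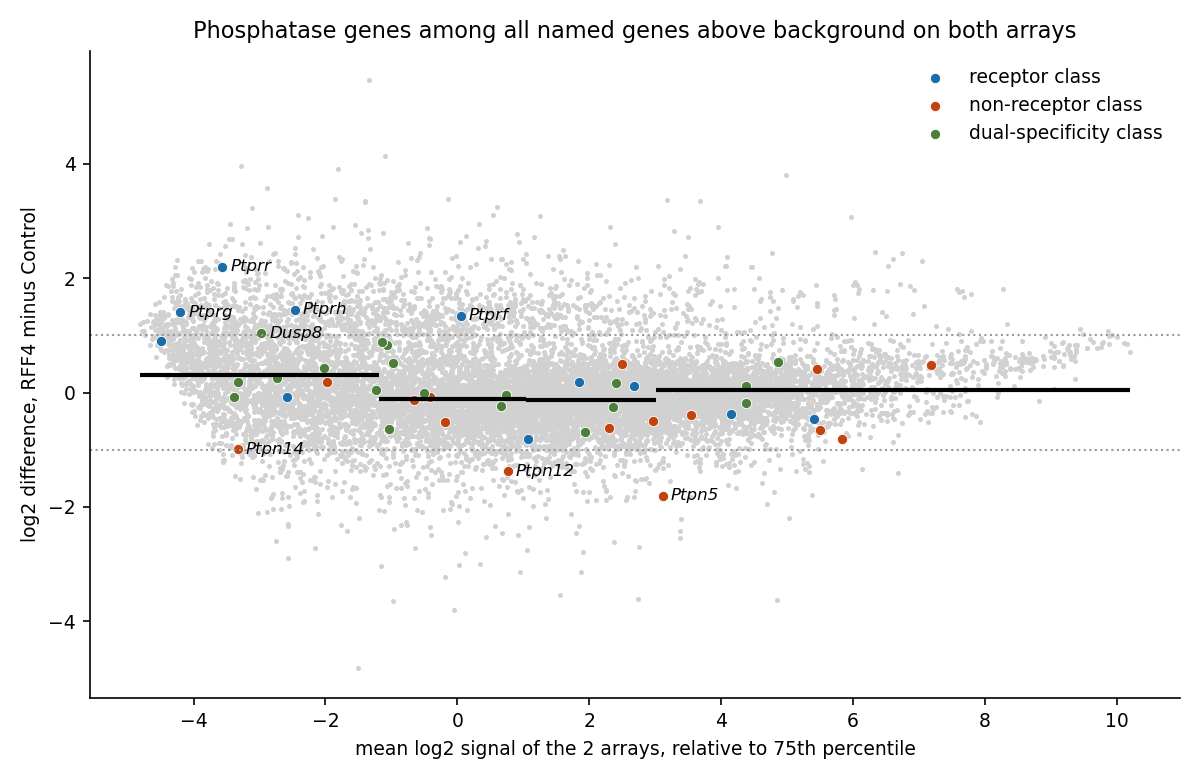
Log2 difference (array labelled RFF4 minus control array) against mean log2 signal relative to the 75th percentile, for all genes above background on both arrays (gray) and the phosphatase genes by class (colors). Black lines are medians of all genes in 4 bins of mean signal, at 0.31, -0.10, -0.12 and 0.037, and dotted lines mark 2-fold. Ptpn5 lies among bright genes and Ptprr, Ptprg and Ptprh among dim ones.

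The 10 MAP kinase phosphatases lay between -0.69 and 1.04. All 4 nuclear enzymes, which are induced by ERK and act on MAP kinases in the nucleus, had a difference above 0, but Dusp1 and Dusp5 turned with median scaling (-0.055 and -0.01), Dusp1 also with cyclic loess (-0.07) and normexp correction (-0.06), and all 4 with the spike-in controls set equal. Dusp2, prominent in activated lymphocytes, was at 4.61 on the control array and 5.13 on the other (0.53). Dusp4 was at -1.59 and -0.71 (0.88), Dusp1 at 4.32 and 4.44 (0.12) and Dusp5, specific for ERK, at 2.33 and 2.49 (0.16). The cytoplasmic ERK phosphatases lay on both sides of 0. Dusp6 was at 4.46 and 4.29 (-0.18), Dusp7 was 0.05 and Dusp9 0.25. Those that act mainly on JNK and p38 went both ways. Dusp10 was at 2.28 and 1.59 (-0.69) and Dusp16 at 0.78 and 0.55 (-0.23). Dusp8 was at -3.49 and -2.45 (1.04, 2.06-fold higher), while its other probe gave 0.75, and it was under 2-fold with median scaling, quantile normalization, cyclic loess, normexp correction and the mean of its probes.

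The Dusp8 promoter is shown as that of the dual-specificity gene past 2-fold, with the cyclic AMP response element TGACGTCA in capitals. It reads the same on both strands, and the sequence runs 5′ to 3′ on the gene's strand.
Dusp8, chr7:142095235-142095534, minus strand: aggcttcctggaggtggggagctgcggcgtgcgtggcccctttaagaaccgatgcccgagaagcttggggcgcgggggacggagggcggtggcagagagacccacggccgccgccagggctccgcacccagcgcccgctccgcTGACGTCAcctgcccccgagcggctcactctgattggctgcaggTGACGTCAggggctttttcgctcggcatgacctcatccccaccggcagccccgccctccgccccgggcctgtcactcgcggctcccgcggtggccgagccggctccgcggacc
It holds the element 2 times, both before the start site. The element is in 1.79% of all promoters and in 5 of 67 member promoters (7.46%), those of Dusp1, Dusp8, Ptpn11, Ptprs and Ptpru, of which Dusp8 was higher, Ptpn11 lower, Dusp1 and Ptprs near 0 and Ptpru not above background. Members that hold the element thus shared no direction.

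The atypical dual-specificity genes, which lack the MAP kinase binding domain, had a median of -0.0069 over 9 of 14 genes, between -0.63 and 0.83. Dusp11, an RNA phosphatase, was at -0.72 and -1.35 (-0.63), and Dusp23 was at -1.48 and -0.65 (0.83). Dusp22, also called JKAP and an inhibitor of Lck, was 0.51 with its brightest probe and 0.05 with the other. Dusp3 was 0.43, Dusp19 0.18, Dusp14 -0.01, Dusp28 -0.05, Dusp18 -0.08 and Dusp12 -0.25. The other Dusp12 probe gave 0.23.

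The genes that these phosphatases act on were compared as lists chosen for their place in the pathway. Of 19 kinases and adaptors of antigen receptor and cytokine signaling, all had a difference, 11 lower and 8 higher, with a median of -0.09. The median was -0.33 under quantile normalization and -0.31 under cyclic loess, each with 5 of 19 higher. More than 2-fold lower were 0 and higher was 1 (5.26%), against 5.05% and 12.3% of all named genes. The gene that was higher was Syk (1.47), a kinase that macrophages and B cells use in place of Zap70. With the spike-in controls set equal the median was -1.21. Then 13 of 19 were more than 2-fold lower and 0 higher, against 56.9% and 1.39% of all named genes. Fyn (-0.93), Jak2 (-0.79) and Stat5b (-0.70) were the lowest, and Lck was 0.29 and Zap70 -0.06. Of 22 genes of the MAP kinase cascade, 19 had a difference, with a median of -0.10 that turned slightly above 0 with the mean of all probes (0.0021) and with no filter (0.056). Mapk3, which encodes an ERK kinase, was 0.38 and the p38α gene Mapk14 was 0.05. Braf was the gene more than 2-fold lower (-1.22), and the p38 genes Mapk11 (2.01) and Mapk13 (1.67) were the ones more than 2-fold higher. These calls made up 5.26% and 10.5% of the 19 cascade genes, close to the 5.05% and 12.3% over all named genes. Under spike-in scaling the cascade had 13 genes past 2-fold lower and 0 past 2-fold higher, where all named genes had 56.9% and 1.39%. The direction of the cascade as a whole was thus not fixed by these values.

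Of 15 feedback and target genes of ERK, 13 had a difference, 10 higher and 3 lower, with a median of 0.90, which turned to -0.23 with the spike-in controls set equal. More than 2-fold higher were 5 of 13 (38.5%), against 12.3% of all named genes, and 0 were more than 2-fold lower. Under median scaling 2 of 13 were, against 9.68%, and with normexp 2, against 9.22%. The 5 genes were Ccnd1 (2.03), which encodes cyclin D1, the inhibitor Spred1 (1.40), Ier3 (1.13), Fosl1 (1.096) and Etv4 (1.01). All of these but Ccnd1 lay in the dimmest bin of mean signal. That bin held 5 of the 13 genes, 4 of them more than 2-fold higher, against 23.3% of all genes in it. The early response genes Egr1 (0.30), Egr2 (0.10) and Fos (-0.11) lay nearer to 0. Of the nuclear phosphatases, which ERK also induces, Dusp4 (0.88) and Dusp2 (0.53) were farther above 0 than Dusp5 (0.16) and Dusp1 (0.12). Several of the genes that were higher, Ccnd1 and Etv4 among them, are also expressed in intestinal epithelium, whose markers were higher on the same array, and the part of those cells was not tested. These are RNA values. By flow cytometry the paper found equivalent amounts of phosphorylated ERK protein in these IELs of Rbpj-/- and Rbpj+/+ mice.

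Where a gene had several probes above background on both arrays, they could be compared within the gene. Among 11 such members the probes of a gene differed by 0.0077 to 0.49, with a median of 0.29. In 3 of them, Dusp12, Dusp18 and Ptprj, the probes lay on both sides of 0. No member past 2-fold other than Dusp8 had more than 1 probe above background on both arrays, so that Ptpn5, Ptpn12, Ptprr, Ptprf, Ptprg and Ptprh each rest on 1 probe with 1 spot per array.

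**Figure D5:**
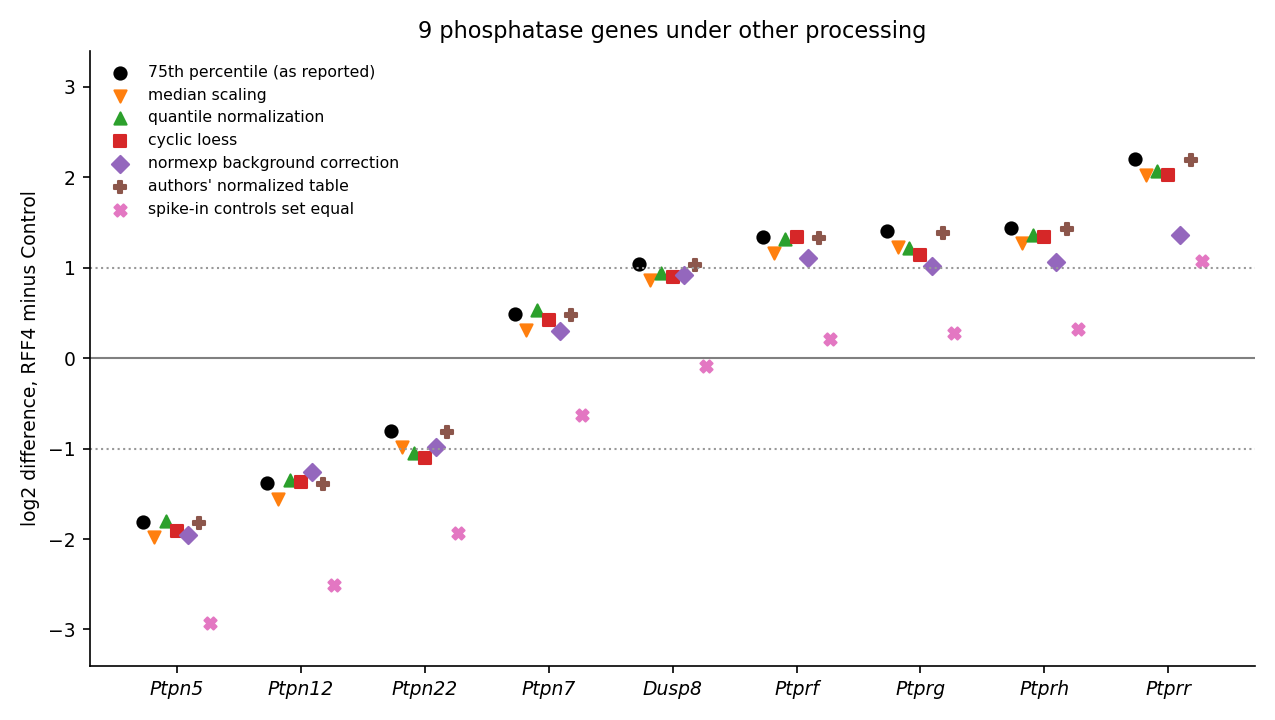
Log2 difference (array labelled RFF4 minus control array) of 9 phosphatase genes under 75th percentile scaling and 6 other settings, with dotted lines at 2-fold. Ptpn5 and Ptpn12 stay more than 2-fold lower and Ptprf, Ptprg, Ptprh and Ptprr above 0 in all 7, while Ptpn7 and Dusp8 turn below 0 with the spike-in controls set equal.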

How the data were processed

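RNA of sorted TCRαβ+CD8αα+ IELs was hybridized to 1 array per genotype from 150 ng RNA, and both arrays share a slide and a scan. The deposited scanner files hold intensity values that the authors obtained with Agilent Feature Extraction 10.7.1.1, background-subtracted per spot and linear, with no scaling between arrays. The authors also deposited a table of normalized log2 values, centered per probe, used as an alternative. The study names GeneSpring for it without settings. From the scanner files, signals were taken to log2 and shifted so that the 75th percentile of the gene probes (8.99 on the control array, 7.82 on the array labelled RFF4) became 0. Control spots and outlier flags were removed, and 0 spots were saturated.

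Of 29150 probes with a RefSeq accession, 27509 matched a symbol of GRCm38.p6. A probe counted as well above background when 50% or more of its spots did. A gene was its brightest probe and was kept if well above background on at least 1 array. If that was the brighter array alone, the difference was a bound, taken from the dim signal or, if higher, from the lowest well-measured signal of that array, and none was given under 1-fold. The error of a difference combines the scanner's error of both spots.

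Every member may be named. Described in full were Ptpn5, members past 2-fold, the 4 brightest of each class and members with a role in T cell receptor or MAP kinase signaling, and other genes come from the lists and the check of Notch targets. Members, lists and alternatives were chosen with earlier results of these data known. The alternatives were median scaling, equal spike-in controls, quantile normalization, cyclic loess, normexp with an offset of 50 on median signals, the authors' table, the mean of all probes, genes above background on both arrays, no filter or bound, and outlier spots kept. A filter on the control signal was added after seeing the data. R 4.3.3 with limma 3.58.1 made the quantile, loess and normexp values, and Python 3.11.15 (pandas 2.3.3, numpy 2.4.6, matplotlib 3.10.9) the rest. The steps were tested on simulated data. Protein sequences were not analysed here, and the results of some list genes are not reported here.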

Additional observations from a re-analysis of the deposited data

How the results depend on the processing

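No paired analysis was possible because each genotype has 1 array, and no array could be left out. Differences were taken as moved when they changed by more than the technical SD of 0.16, and counts when they changed by more than 1.5 times. By these rules the authors' table, the mean of all probes, the filter on both arrays and the outlier spots moved neither the class medians and the counts past 2-fold nor the 23 members followed besides Ptpn5. The authors' table still put 3 members more than 2-fold lower (5.22% of all named genes), and the mean of all probes put 4 more than 2-fold higher (12.1%). Median scaling lowers all differences by 0.17 by construction. It gave -1.98 for Ptpn5 and medians of -0.18 (all members), 0.013 (receptor), -0.67 (non-receptor) and -0.055 (dual-specificity). Setting the spike-in controls equal lowers them by 1.12 by construction. It gave -2.93 for Ptpn5, medians of -1.08, -0.73, -1.57 and -1.005 in the same order, 26 members more than 2-fold lower (56.9% of all named genes) and 1 higher (1.39%), and Dusp8 reversed to -0.085. Leaving out the filter and the bounds, so that dim genes count too, put 13 members past 2-fold higher (30.03% of all named genes) and gave medians of 0.18 (all members) and 0.65 (receptor). Normexp gave a receptor median of 0.39 and changed the 45 members in both directions, 29 down and 16 up, from -0.83 (Ptprr) to 1.25 (Ptpn14), and the cause was not tested. Quantile normalization and cyclic loess each gave 4 members more than 2-fold lower (5.49% and 6.41% of all named genes) against 2 (5.05%) and moved 4 and 10 of the 23 down, where the cause was not tested either. Leaving out genes whose control signal lay under the floor of the other array, an alternative chosen after seeing the data, gave a receptor median of 0.0207 and 3 members more than 2-fold higher. The non-receptor median stayed below 0 in all settings. The weaker signal on the array labelled RFF4 limits how far a fall of a dim gene can be measured.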

Other observations

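Ptprcap, left out of the members because it encodes the CD45-associated protein and no phosphatase, had a log2 signal of 6.29 on the control array and 7.14 on the array labelled RFF4, a difference of 0.85, while Ptprc itself was -0.46.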
